A study of Mus musculus with 5 samples.

Results

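Granule cells are the principal neurons of the dentate gyrus, the entry gate of the hippocampal circuit, and they send mossy fibres to CA3 pyramidal neurons. They are also the cells that adult hippocampal neurogenesis adds, under the control of transcription factors such as PROX1, and mature granule cells fill with the calcium buffer calbindin. A set of 9 genes enriched in mature granule cells (*Prox1*, *Dsp*, *C1ql2*, *Tdo2*, *Lct*, *Trpc6*, *Glis3*, *Stxbp6* and *Calb1*) was followed here by gene symbol, out of 23361 symbols in the expression files. All 9 had a mean of at least 1 FPKM (fragments scaled by transcript length and by library depth) and were among the 12740 genes tested.

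Expression was measured by RNA-seq of hippocampal tissue from mice aged 3 months. The control group was *Hdac1* f/f (n = 2 libraries), which the sample titles call WT. The *Hdac1* cKO group was *Hdac1* f/f carrying Nestin-Cre (n = 3). By the study's description both groups had floxed alleles, and no Cre-only group was analysed here. Nestin-Cre acts in neural progenitors, so HDAC1, a histone deacetylase, is lost from neurons and astrocytes and kept in microglia, and the study used male mice at this age. The labels do not say that each library came from a separate animal, so p-values measure the spread between libraries. *Hdac1* itself had 8.95 FPKM in control 1 and 13.1 FPKM in control 2, while the cKO libraries had 1.95, 3.12 and 3.37 FPKM, a log2 fold change of −1.66. Its limma adjusted p was 0.219, and 0.0039 with the library set as a block, so with genotype alone in the model the test did not call the deleted gene itself. The depth of each library was estimated from steps in the low FPKM values, which, with annotated exon lengths, gave the 9 genes about 122 to 1731 fragments each per library. Ratios of these low values repeated between some libraries. This placed control 1 and cKO 1 in set 1 and control 2, cKO 2 and cKO 3 in set 2. These sets cross the genotypes and stand for no batch named in the labels. Set 1 pairs 1 control with 1 cKO library, so results are given pooled and within each set.

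The granule cell genes were all expressed in every library, and fell into an order of abundance. *Calb1*, which encodes calbindin, was highest, with a mean of 48.9 FPKM over the 5 libraries. *C1ql2*, a secreted C1q-like protein of mossy fibre synapses, followed at 34.4 FPKM and *Trpc6*, a receptor-operated cation channel, at 32.8 FPKM. *Stxbp6* (amisyn, a SNARE-binding protein) stood at 22.1 FPKM and *Prox1*, the homeobox factor of granule cell identity, at 15.04 FPKM. The lower members were *Glis3* (a zinc finger transcription factor, 11.4 FPKM), *Lct* (lactase, 9.33 FPKM), *Tdo2* (tryptophan dioxygenase, 6.60 FPKM) and *Dsp* (the desmosomal protein desmoplakin, 4.01 FPKM). Ranges over libraries overlapped in 3 of the 8 pairs of neighbours in this order, namely *C1ql2* with *Trpc6*, *Prox1* with *Glis3*, and *Glis3* with *Lct*. *Prox1* was nevertheless above *Glis3* within each of the 5 libraries, and *C1ql2* was above *Trpc6* in 3 of them. Calbindin is also made by CA1 neurons and interneurons, so *Calb1* is not exclusive to granule cells in whole hippocampus.

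**Figure D1:**
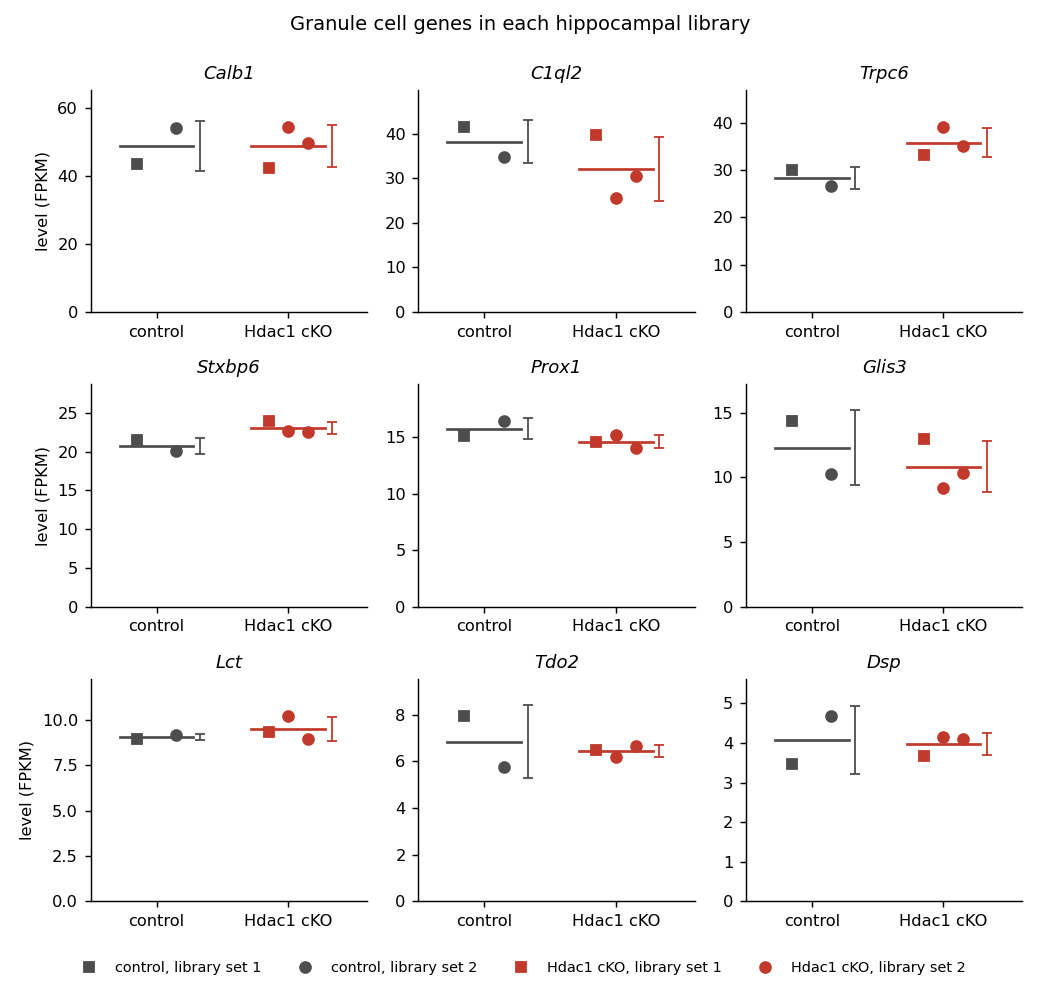
Level in FPKM of each granule cell gene in each library, with controls in grey, Hdac1 cKO in red, squares for library set 1 and circles for set 2. Horizontal lines are group means and bars beside them the SD (n = 2 and 3); the groups are apart for *Trpc6* and *Stxbp6*, while *C1ql2*, *Glis3*, *Dsp* and *Calb1* separate squares from circles.

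The comparison of genotypes asks whether genes of the granule cell differ at 3 months where HDAC1 is lost from neurons and astrocytes. None of the 9 genes passed an adjusted limma p of 0.05, a level reached by 0.00785% of tested genes, and 4 were higher and 5 lower in cKO. With the library set as a block none passed either, the lowest adjusted p being 0.465 for *Trpc6*. At an unadjusted limma p of 0.05 a single member, *Trpc6*, was reached, against 4.36% of tested genes. No member reached the study's threshold of a 1.5-fold change with p under 0.05, which 0.659% of tested genes did. The median log2 fold change was −0.021 over the 9 genes and 0.015 over all tested genes, on the log2(FPKM + 1) scale used throughout. When 1 library was left out, the median over the 9 genes took either sign, from −0.048 to 0.080. Their median absolute log2 fold change was 0.103, against 0.0997 over all tested genes. In bulk tissue, fewer granule cells and less RNA of these genes per cell cannot be told apart.

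Among the transcription factors, *Prox1* had 15.1 FPKM in control 1 and 16.4 FPKM in control 2, while the cKO libraries had 14.6, 15.2 and 14.01 FPKM. The groups overlapped, since cKO 2 lay above control 1. The log2 fold change of *Prox1* was −0.10 (SE 0.10, 95% interval −0.34 to 0.14, limma adjusted p = 0.966). It was −0.048 within set 1 and −0.16 within set 2. *Prox1* lies on the minus strand of chromosome 1 (191945660 to 191994559, mm9), and 133 of its 4133 exonic nt overlap *Gm17566* on the opposite strand. Whether counting used the strand is not given in the sources used here, so reads over that stretch cannot be assigned to either gene. *Glis3* had 14.3 FPKM in control 1 and 10.2 FPKM in control 2, while the cKO libraries had 13, 9.17 and 10.4 FPKM. Its high libraries were control 1 and cKO 1, one of each genotype. The log2 fold change was −0.16 (95% interval −0.57 to 0.25, limma adjusted p = 0.972), with −0.13 and −0.065 within the sets. It was 0.062 without control 1 and −0.39 without control 2, while it was negative within both sets. With 1 control left, the control group holds a single library set, so these 2 values mix set with genotype. *Glis3* is on the minus strand of chromosome 19 (28333341 to 28754567, mm9), and a second annotated entry of the same name shares 1276 nt with it on that strand.

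The synaptic and signalling genes held the largest differences in both directions. *Trpc6* had 29.9 FPKM in control 1 and 26.6 FPKM in control 2, while the cKO libraries had 33.2, 39.2 and 35.0 FPKM, a control mean of 28.3 ± 2.33 FPKM (SD, n = 2) beside a cKO mean of 35.8 ± 3.05 FPKM (SD, n = 3). Every cKO library exceeded both controls, and the cKO mean was 1.26 times the control mean. The log2 fold change was 0.33 (SE 0.11, 95% interval 0.07 to 0.58). Before adjustment the limma p was 0.0187, and after it 0.955. Its absolute size lay at percentile 94.3 of all tested genes. *Trpc6* was higher in cKO within both sets, by 0.14 in set 1 and by 0.46 in set 2. The difference was 0.25 without control 2 (unadjusted limma p of 0.129), 0.26 without cKO 2 (0.0585) and 0.27 after rescaling to a common total (0.0865), so it kept its direction in each. The summed level of 10 choroid plexus genes was likewise lowest in control 2 (9.13 FPKM) and highest in cKO 2 (613 FPKM, of which 589 FPKM were *Ttr*), with 170 FPKM in control 1 and 79.6 and 28.7 FPKM in cKO 1 and cKO 3. Each gene of that list was highest in cKO 2 except *Kl* (5.71 FPKM in control 1 and 5.40 FPKM in cKO 2) and *Sostdc1* (1.48 FPKM in control 1 and 1.37 FPKM in cKO 2), which were highest in control 1, and *Clic6* was nearly equal in both (1.42 and 1.47 FPKM). *Folr1* and *Kcnj13* were listed at 0 in cKO 3 and *Otx2* in control 2. Of the 6 tested genes of that list 4 were higher in cKO, with *Calml4* (0.68) under an unadjusted limma p of 0.05. The part of this tissue in the *Trpc6* difference was not tested. The gene is on the plus strand of chromosome 9 (8544432 to 8680565, mm9), and no other annotated gene overlaps its exons.

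*C1ql2* had 41.5 FPKM in control 1 and 34.7 FPKM in control 2, while the cKO libraries had 39.8, 25.6 and 30.6 FPKM. cKO 1 lay between the controls, while cKO 2 and cKO 3 were the lowest libraries. The log2 fold change was −0.26 (SE 0.18, 95% interval −0.67 to 0.14, limma adjusted p = 0.955), with −0.061 within set 1 and −0.30 within set 2. Without cKO 1 it was −0.43 with an unadjusted limma p of 0.0132, and without cKO 2 it was −0.12. The fit without cKO 1 keeps only cKO libraries of set 2, where *C1ql2* was lower, so it mixes set with genotype. With all libraries and the library set as a block, the difference was −0.20 (unadjusted limma p of 0.0852). *C1ql2* is a short gene on the plus strand of chromosome 1 (122237159 to 122239748, mm9) with a single annotated transcript. *Stxbp6* had 21.5 FPKM in control 1 and 20.0 FPKM in control 2, while the cKO libraries had 23.9, 22.6 and 22.5 FPKM. The groups did not overlap for *Stxbp6*, the lowest cKO library at 22.5 FPKM lying above the highest control at 21.5 FPKM. The log2 fold change was 0.14 (SE 0.10, 95% interval −0.09 to 0.37, limma adjusted p = 0.955), and it was alike within the sets at 0.15 and 0.16. *Stxbp6* is on the minus strand of chromosome 12 (45953475 to 46175480, mm9). *Trpc6* and *Stxbp6* were the only members whose cKO libraries were all above the controls (2 of 9, against 11.0% of tested genes), and no member had all cKO libraries below them (0 of 9, against 9.41%).

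*Calb1*, the maturity marker, had 43.6 FPKM in control 1 and 54.1 FPKM in control 2, while the cKO libraries had 42.4, 54.5 and 49.7 FPKM. Both group means were 48.9 FPKM, with an SD of 7.40 FPKM (n = 2) and 6.12 FPKM (n = 3). The log2 fold change was 0.00038 (95% interval −0.32 to 0.32, limma adjusted p = 0.9999), and it was −0.042 and −0.055 within the sets. *Calb1* is on the plus strand of chromosome 4 (15808411 to 15835211, mm9). The interval spans both directions, so equal means do not show equal expression.

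The 3 less abundant members encode 2 enzymes and a junction protein. *Lct* had 8.93 FPKM in control 1 and 9.19 FPKM in control 2, while the cKO libraries had 9.36, 10.2 and 8.96 FPKM, and the groups overlapped (log2 fold change 0.062, 95% interval −0.20 to 0.32, with 0.061 and 0.054 within the sets). *Tdo2* had 7.95 FPKM in control 1 and 5.75 FPKM in control 2, while the cKO libraries had 6.48, 6.18 and 6.66 FPKM, so that all cKO libraries fell between the controls. Its log2 fold change was −0.06 (95% interval −0.40 to 0.27), with opposite signs in the sets, −0.26 in set 1 and 0.14 in set 2. *Dsp* had 3.47 FPKM in control 1 and 4.68 FPKM in control 2, while the cKO libraries had 3.66, 4.16 and 4.09 FPKM, again between the controls. Its log2 fold change was −0.021 (95% interval −0.36 to 0.32), and it differed by 0.061 in set 1 and by −0.15 in set 2. *Dsp* and *Tdo2* were the 2 members with opposite signs, and the other 7 kept one direction in both sets. The same share over all tested genes was not computed. *Calb1*, among these 7, was negative within both sets and at 0.00038 pooled. *Lct* lies on the minus strand of chromosome 1 (130181333 to 130224895), *Tdo2* on the minus strand of chromosome 3 (81761012 to 81780124), and *Dsp* on the plus strand of chromosome 13 (38243197 to 38290446), all in mm9. *Dsp* shares 360 of its 9625 exonic nt with *Gm10129* on the opposite strand.

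**Figure D2:**
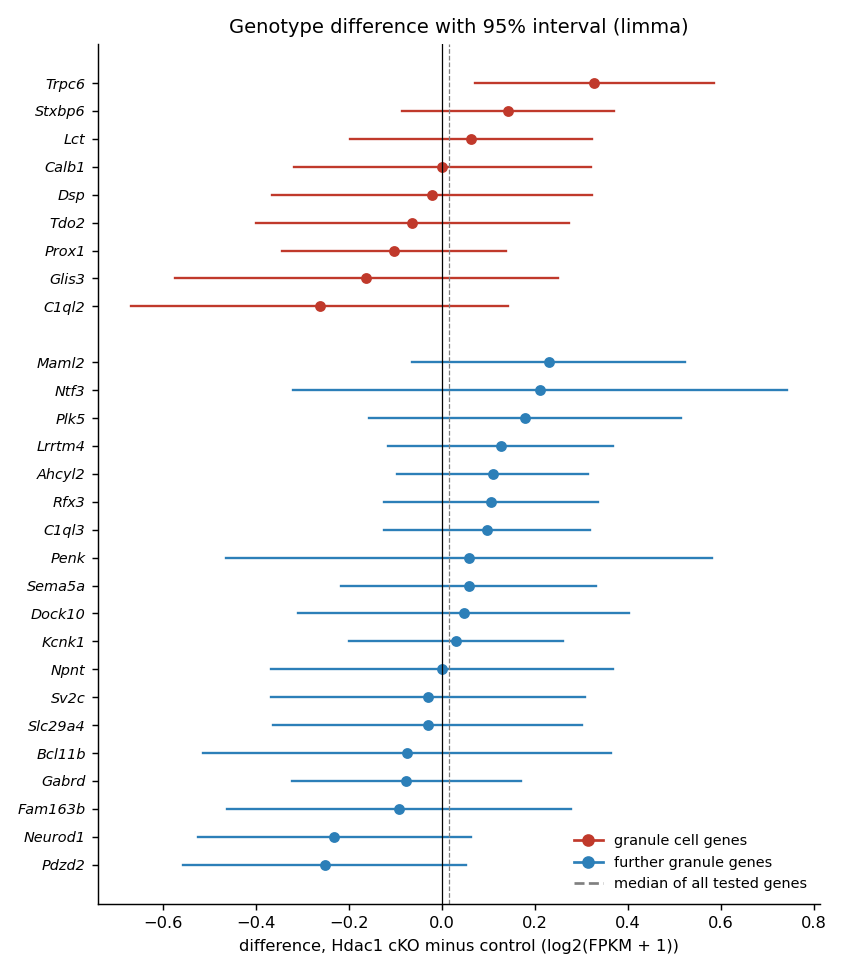
Difference between Hdac1 cKO and control in log2(FPKM + 1) for the 9 granule cell genes (red) and 19 further granule genes (blue), with 95% limma intervals; the dashed line is the median of all tested genes. Among the intervals drawn, that of *Trpc6* (0.07 to 0.58) alone excludes 0.

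The spread between libraries differed widely among members. The within-group SD of *Stxbp6* was 0.055 on the log2 scale, that of *Prox1* 0.064 and that of *Lct* 0.073, at percentiles 7.10, 10.4 and 14.8 of all tested genes. *C1ql2* (0.27) and *Glis3* (0.27) were at percentiles 89.0 and 87.8, and *Calb1* (0.19) at 71.9. Relative to the SD that limma's mean-variance trend gives for genes of the same level, *C1ql2* had 2.18 times, *Glis3* 1.87 times and *Calb1* 1.58 times that spread, while *Stxbp6* had 0.423 times. In all, 4 members lay above the trend and 5 below it. The SD that counting alone would give on the estimated fragments, taken in the lowest library, was about 0.089 for *C1ql2*, 0.071 for *Glis3* and 0.039 for *Calb1*, below their observed SD. For *Prox1* (0.080), *Lct* (0.079) and *Stxbp6* (0.061) it was above the observed SD, so this estimate is approximate.

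**Figure D3:**
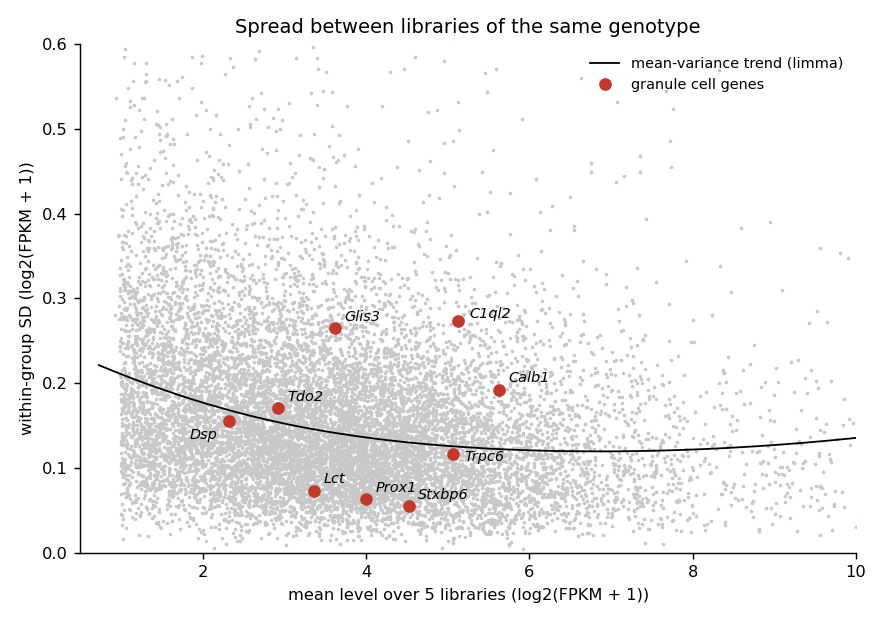
Within-group SD of log2(FPKM + 1) against mean level for all tested genes (grey; 143 genes lie outside the axes), with limma's mean-variance trend as a line and the 9 granule cell genes in red. *C1ql2*, *Glis3* and *Calb1* lie above the trend, and *Stxbp6*, *Prox1* and *Lct* below it.

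These 3 variable members separated the library sets and not the genotypes. Since the sets cross the genotypes, a set difference is part of the within-group SD, so it is partly built into members picked for a high SD. With genotype in the model, *Glis3* was lower in set 2 than in set 1 by 0.41 on the log2 scale (95% interval −0.64 to −0.19, limma adjusted p = 0.0636). *C1ql2* was lower in set 2 by 0.39 (95% interval −0.62 to −0.16, adjusted p = 0.0768 with limma). *Calb1* was higher in set 2 by 0.30 (95% interval 0.13 to 0.46, adjusted p = 0.0667 with limma). These 3 of 9 had an unadjusted p under 0.05, against 22.9% of tested genes, and 0 passed an adjusted p of 0.05, against 3.09% of tested genes. The sets did not overlap in 4 members (*Dsp*, *C1ql2*, *Glis3* and *Calb1*), against 40.1% of tested genes, so shares of this size are near the background of these libraries. The median absolute set difference was 0.181 over the 9 genes and 0.139 over all tested genes. The set difference, with genotype in the model, exceeded the genotype difference with no block in 5 members. It fell short of it for *Trpc6*, *Stxbp6*, *Prox1* and *Lct*. Over all tested genes the median absolute difference was also larger between sets (0.139) than between genotypes (0.0997). The share of all tested genes with the larger set difference was not computed. The difference of *Trpc6* between the sets was 0.017. What separates the sets was not tested.

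**Figure D4:**
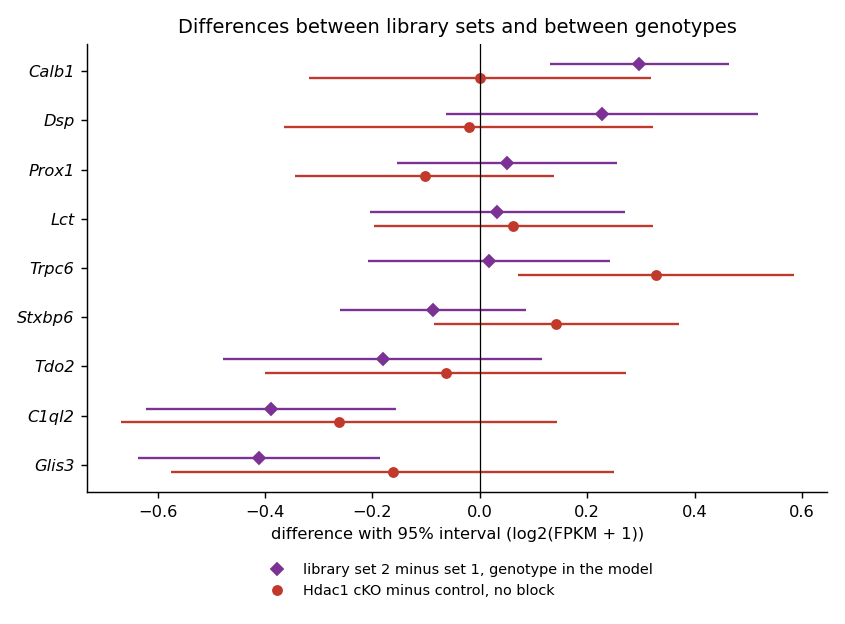
For each granule cell gene, the difference between library sets with genotype in the model (purple diamonds) and between genotypes with no block (red circles), in log2(FPKM + 1) with 95% limma intervals. *Glis3* (−0.41) and *C1ql2* (−0.39) are lower and *Calb1* (0.30) is higher in set 2, while *Trpc6* shows 0.017 between sets and 0.33 between genotypes.

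Ratios between pairs of members show how their proportions varied. The ratio of *Calb1* to *C1ql2* FPKM, chosen after the values were seen, was 1.05 in control 1 and 1.07 in cKO 1. It was 1.56 in control 2, 2.13 in cKO 2 and 1.63 in cKO 3. The ratio of *Trpc6* to *Prox1*, a pair with opposite genotype differences chosen in the same way, was 1.99 in control 1 and 1.63 in control 2, against 2.28, 2.58 and 2.50 in the cKO libraries. The 9 genes summed to 186 FPKM in control 1 and 182 FPKM in control 2, while the cKO libraries had 186, 187 and 182 FPKM, a coefficient of variation of 1.40%. The largest parts of that sum were *Calb1*, *C1ql2* and *Trpc6*. The mean log2(FPKM + 1) of the 9 genes, which weights them equally, ran from 4.04 to 4.10.

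A further 21 genes with enrichment in granule cells or mossy fibres were listed, and 20 were tested. Of these, 11 were higher and 9 lower in cKO, 0 passed an adjusted limma p of 0.05, and 0 had an unadjusted p under 0.05. Their median log2 fold change was 0.039, and from −0.0068 to 0.077 when 1 library was left out. *C1ql3*, a paralogue of *C1ql2*, had 76.7 FPKM in control 1 and 86.9 FPKM in control 2, while the cKO libraries had 85.9, 87.5 and 88.6 FPKM, a log2 fold change of 0.10 where *C1ql2* had −0.26. *Neurod1*, a transcription factor of granule cell differentiation, had 7.64 FPKM in control 1 and 7.57 FPKM in control 2. Its cKO libraries had 6.43, 7.02 and 5.61 FPKM (log2 fold change −0.23, 95% interval −0.53 to 0.06). Every cKO library was below both controls in 3 of the 20 genes, *Neurod1* and *Pdzd2* (−0.25) among them, against 9.41% of tested genes. Every cKO library was above both controls in 4 of the 20, against 11.0% of tested genes, namely *Maml2* (0.23), *Lrrtm4* (0.13), *Ahcyl2* (0.11) and *Rfx3* (0.11). *Bcl11b*, a transcription factor shared by granule and CA1 neurons, had a pattern like that of *Glis3*, at 26.7 and 27.8 FPKM in control 1 and cKO 1 and at 18.6 to 19.7 FPKM in the other libraries. It was lower in set 2 by 0.47 (limma adjusted p = 0.0317), the 1 gene of this list past an adjusted p of 0.05 between the sets (1 of 20, against 3.09% of tested genes), and its genotype difference was −0.08. *Dock10*, a guanine nucleotide exchange factor, followed *Calb1* in direction, higher in set 2 by 0.34 with a genotype difference of 0.05.

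The remaining genes of this list had log2 fold changes of 0.21 for *Ntf3* (a neurotrophin), 0.18 for *Plk5*, 0.06 for *Penk* (an opioid precursor), 0.06 for *Sema5a* and 0.03 for *Kcnk1*. *Npnt* was at −0.00068, *Sv2c* at −0.03, *Slc29a4* at −0.03, *Gabrd* (a subunit of extrasynaptic GABA receptors) at −0.08 and *Fam163b* at −0.09. Among them, *Plk5* (−0.28) and *Penk* (0.48) had an unadjusted limma p under 0.05 between the sets, which with *Bcl11b* and *Dock10* makes 4 of the 20 genes, near the background of 22.9% of tested genes. The 95% interval for genotype included 0 for each gene named in these sentences.

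Markers of immature granule neurons covered a wide range of levels, several of them shared with other neurons. *Eomes*, a marker of intermediate progenitors, was at 0.052 to 0.190 FPKM and *Dcx*, the doublecortin gene of newborn neurons, at 1.10 to 1.44 FPKM, while *Sox11* was at 4.21 to 6.93 FPKM, *Sox4* at 4.71 to 7.63 FPKM, *Calb2* at 17.6 to 31.5 FPKM and *Neurod2* at 31.6 to 47.1 FPKM. Of the 12 immature markers 8 were tested, with 1 higher, 7 lower and 0 at an unadjusted p under 0.05 (median log2 fold change −0.09, from −0.10 to 0.047 when 1 library was left out). *Stmn1* (−0.13) and *Tubb3* (−0.08), the most abundant of the list, are expressed in mature neurons too, and *Tac2*, a tachykinin precursor, was the higher member (0.49, 95% interval −0.07 to 1.04).

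As a guide to the dissected subfields, marker lists of neighbouring regions were set beside the granule cell genes, with no test between lists. The summed granule level ran from 0.532 to 0.588 times that of 10 CA1 genes. Against the CA2 list it ran from 0.595 (cKO 2) to 0.887 (control 1), where most of the CA2 sum was *Pcp4* (161 FPKM in control 1 and 265 FPKM in cKO 2), and against 10 CA3 genes from 1.03 (cKO 3) to 1.27 (cKO 2). The mean log2 level over libraries had a range of 0.063 for the 9 genes, 0.069 for CA1, 0.177 for CA2 and 0.246 for CA3. The CA1 mean covers genes that differed between the library sets in opposite directions, *Pou3f1* (−0.90, limma adjusted p = 0.0116) and *Nov* (0.43, limma adjusted p = 0.0456). The mean of the 9 genes likewise covers *Glis3* (−0.41) and *C1ql2* (−0.39), lower in set 2, and *Calb1* (0.30), higher in set 2. These granule members did not pass an adjusted limma p of 0.05 between the sets. Median log2 fold changes were 0.0032 for CA1 (−0.070 to 0.060 when 1 library was left out), 0.10 for CA2 (0.024 to 0.12) and 0.08 for CA3 (0.016 to 0.15). None of these lists had a gene past an adjusted limma p of 0.05, and the genes under an unadjusted p of 0.05 were *Coch* of the CA3 list (0.64) and *Calcrl* of the mossy cell list (0.31), both higher in cKO.

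Of the 9 tested genes of the subiculum and neighbouring cortex, 8 had lower values in cKO (5896 of all 12740 tested genes did) and 0 passed an adjusted limma p of 0.05. The list summed to 98.4 FPKM in control 1 and 102 FPKM in control 2, while the cKO libraries had 79.5, 81.8 and 66.6 FPKM, so no cKO library reached a control. The granule sum was 1.89 times this level in control 1 and 1.79 times in control 2, against 2.34, 2.28 and 2.73 times in the cKO libraries. *Tshz2* (−0.96), *Tbr1* (−0.53), *Cux2* (−0.33) and *Satb1* (−0.28) had an unadjusted limma p under 0.05 (4 of 9, against 4.36% of tested genes). The list was chosen with earlier results of these data known, so its shares are a description and no independent support. A large share of the summed difference was that of *Tshz2*, with 21.6 FPKM in control 1 and 23.8 FPKM in control 2, while the cKO libraries had 11.2, 13.7 and 9.03 FPKM. *Rorb* had the opposite pattern (0.18), with 8.94 FPKM in control 1 and 8.03 FPKM in control 2, while the cKO libraries had 10.01, 9.41 and 9.83 FPKM. Choroid plexus genes varied most, with *Ttr* at 157 FPKM in control 1 and 1.33 FPKM in control 2, while the cKO libraries had 67.9, 589 and 20.7 FPKM. Among the 9 granule cell genes, the highest library was at most 1.62 times the lowest (*C1ql2*). Pan-neuronal genes had a median log2 fold change of −0.13 (13 of 15 lower), which was 0.00074 without control 2 and −0.20 without control 1. *Syn1* (−0.40), *Nefm* (−0.38) and *Stmn2* (−0.24) of that list had an unadjusted limma p under 0.05. Astrocyte genes had a median of 0.14 (9 of 12 higher), from 0.12 to 0.18 when 1 library was left out, with *Aqp4* (0.78), the water channel of astrocyte endfeet, and *Gfap* (0.43), the astrocyte filament gene, under an unadjusted p of 0.05. *Aqp4* had a limma adjusted p of 0.175, and of 0.0187 with the library set as a block. The median of the thalamus list was 0.08, but −0.039 without control 2 and 0.0040 without cKO 1, and *Slc17a6*, the vesicular glutamate transporter VGLUT2, was at −0.62 with an unadjusted p under 0.05. Interneuron genes had a median of 0.0091 (−0.17 to 0.067 when 1 library was left out), with *Slc32a1*, the vesicular GABA transporter, at −0.54 and under an unadjusted p of 0.05. Medians were 0.08 for oligodendrocyte genes (−0.032 to 0.13) and −0.00038 for microglial genes (−0.15 to 0.11). The part of tissue composition in the values of the granule cell genes was not tested.

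**Figure D5:**
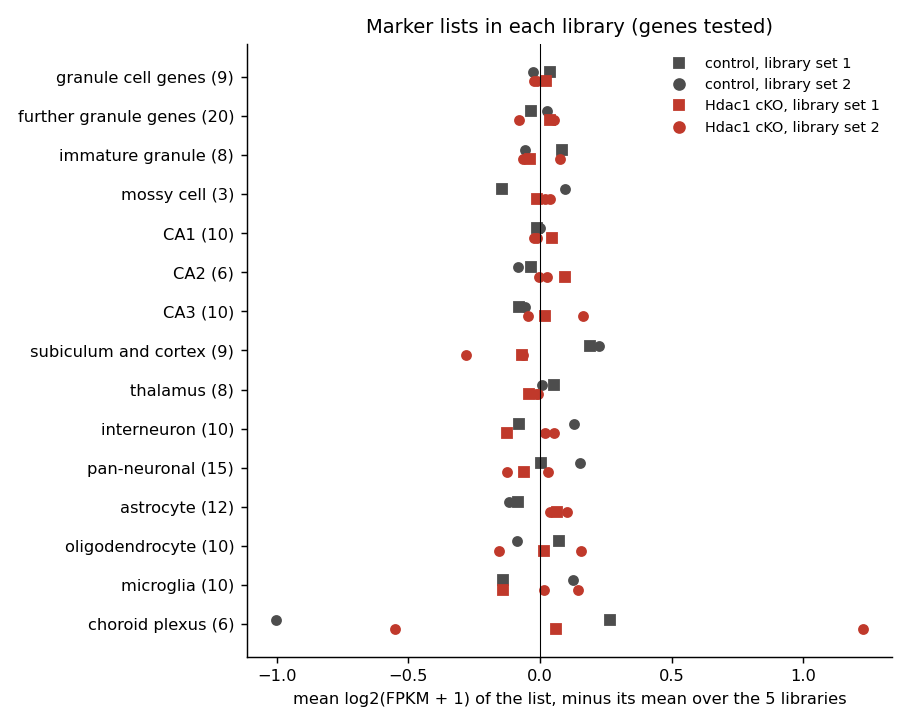
Mean log2(FPKM + 1) of the tested genes of each marker list in each library, centred on the list's mean over the 5 libraries, with the number of genes in brackets. The granule cell genes and CA1 lists span 0.063 and 0.069, the subiculum and cortex list lies lower in all 3 cKO libraries, and the choroid plexus list spans 2.23.

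The centred mean profile of the 9 genes was nearly flat, at 0.037 and −0.026 in the controls and 0.023, −0.011 and −0.022 in cKO. By root mean square distance over the 5 libraries, the closest profiles among 11950 genes that varied at least as much were those of *Akirin1* (0.012), *Slc25a3* (0.014), *Slc25a11* (0.015), *Plekhb2* (0.016) and *H2-Ke2* (0.018 log2 units). With 5 libraries and a profile this flat, the likeness is a description of small variation only.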

How the data were processed

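RNA-seq libraries of hippocampal total RNA (2 control, 3 *Hdac1* cKO) were analysed. In the deposited files each gene has an FPKM value, made by the authors with Cufflinks 2.0.0 on mm9 gene models from UCSC, from collapsed reads that TopHat had placed. Strand use, treatment of reads with several matches and the test behind the study's P are not given in the sources used here. Count tests were not used, since FPKM are not counts. The 12740 genes that averaged 1 FPKM or more were tested with limma 3.58.1 in R 4.3.3 (lmFit, eBayes with trend) on log2(FPKM + 1), genotype as the only term, two-sided, with Benjamini-Hochberg adjustment over all tested genes. The pseudocount of 1 understates changes of low genes. The code was tested on simulated data.

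Library sets were found from genes with a mean under 0.3 FPKM. Pairs with over 10% of their ratios inside one window of 0.05 log2 units were joined (24.6% to 28.4% within sets, 3.71% to 4.64% across). The value of 1 fragment, read from single-transcript genes of at least 1 kb, gave the approximate depth (5.14 to 6.77 M fragments per library), and intervals from it cover counting error only. Coordinates are from GENCODE vM1 (NCBIM37, the assembly of mm9), 1-based, where 21207 of 23361 symbols matched.

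Groups and replicate numbers came from sample titles. Members and marker lists were chosen with earlier results of these data known, and *Synpor* of the further granule list was not analysed here. Another gene of that list enters its counts and median and is not reported here. Named genes were the members, the further granule genes, genes of other lists at an unadjusted p under 0.05 or with high levels, and the 5 closest profiles, leaving out predicted genes and Mir or Snor symbols. Some genes outside that rule were chosen after their values were seen. They were *Dcx*, *Eomes*, *Sox11*, *Sox4*, *Calb2*, *Neurod2*, *Otx2*, *Folr1*, *Kcnj13*, *Clic6*, *Kl*, *Sostdc1*, *Pou3f1*, *Tac2* and *Rorb*. Alternatives were a pseudocount of 0.1, other filters and scalings, no trend, 2 blocks, and leaving out each library.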

Additional observations from a re-analysis of the deposited data

How the results depend on the processing

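The count of members past an adjusted limma p of 0.05 was 0 under all 13 alternatives. The count at an unadjusted p of 0.05 was 0 after rescaling to a common total and ran from 0 to 2 when 1 library was left out (0 without control 2 or cKO 2, and 2 without cKO 1). *Trpc6* kept its direction under every alternative, from 0.25 to 0.41. The median over members was −0.080 with a common total and ran from −0.048 to 0.080 without 1 library. Of 116 member values under alternatives 11 changed sign. *Calb1* turned to −0.015 with median-ratio scaling, −0.066 with a common total, −0.016 with the replicate block and −0.049 with the library set block, and ran from −0.15 to 0.15 without 1 library. Leave-one-out ranges were −0.19 to 0.15 for *Dsp*, −0.27 to 0.14 for *Tdo2* and −0.39 to 0.062 for *Glis3*. Those of *Prox1* (−0.16 to −0.046), *Lct* (0.014 to 0.10) and *Stxbp6* (0.094 to 0.19) kept their sign. Where an arm kept 1 control, that library is assumed to vary like the cKO libraries. Leaving out a library also changed the balance of the library sets between genotypes. Without cKO 1 the remaining cKO libraries were all of set 2, so the values of that arm mix set with genotype. The causes were not tested. Of 182 list medians 25 moved by more than the spread between replicates.

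Same-numbered libraries deviated together (r = 0.402 for number 1 and r = 0.269 for number 2), but with 2 pairs, each inside a library set, numbers are not shown to pair animals. The deviations of the 2 controls from their mean mirror each other, so these values are not independent. Control 2 with cKO 3, of unlike number in the same set, had r = 0.151. With the replicate block *Trpc6* was at 0.34 (limma adjusted p = 0.369), and tested genes past an adjusted p of 0.05 went from 1 to 14. cKO 3 has no control of its number, so this block also takes cKO 3 out of the contrast. With the library set block, which keeps it, 5 tested genes passed. Counting alone gives an approximate SD of 0.130 log2 units for *Tdo2* and 0.10 for *Dsp* in their lowest libraries, beside observed values of 0.17 and 0.16.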
